A study of Mus musculus with 8 samples.

Results

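Nanog, Klf4, Tfcp2l1 and Pou5f1, the gene of Oct4, encode 4 transcription factors of the network that keeps mouse embryonic stem (ES) cells pluripotent. They were taken by symbol from a table of 3160 genes, and all 4 were found in it. ES cells of the line E14Tg2A (strain 129/Ola), kept on gelatin with serum and leukemia inhibitory factor (LIF), were the stage at 0 days in vitro. The second stage was epiblast-like aggregates (ELA), the same line after 2 days of floating culture in a chemically defined medium with N2/B27 and with neither serum nor LIF. Cells of both stages were treated with cycloheximide, which stalls ribosomes on mRNA, before lysis. In each stage, RNA of the cleared lysate (input, here total RNA) was sequenced beside RNA recovered with an antibody against endogenous Rpl10a, a protein of the large ribosomal subunit (Rpl10a-IP, here ribosome-bound RNA). Both fractions were sequenced in 2 replicates at each stage, which makes 4 groups and 8 libraries from 1 cell line. The sources used here do not say whether replicates were separate cultures, so p-values measure only the spread between these samples.

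Oct4 sits at the core of this network together with Sox2. It is needed in both naive cells, which resemble the epiblast before implantation, and primed cells, which resemble it after implantation. Nanog stabilizes the naive state. Klf4 and Tfcp2l1 are ancillary naive factors that act downstream of LIF and STAT3, and Tfcp2l1 is also a target of Wnt signalling. On withdrawal of LIF, naive factors are shut down while Oct4 is largely kept. The comparisons below addressed how far the mRNA of each factor differed between the stages, and whether its place on ribosomes differed too.

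The genes lie at chr6:122707489-122714633 (Nanog), chr4:55527137-55532475 (Klf4), chr1:118627923-118685168 (Tfcp2l1) and chr17:35506032-35510777 (Pou5f1) in GRCm38.p6, with Klf4 on the minus strand. Since all 4 mRNAs were lower in ELA, a stretch of each promoter is shown, 142 to 23 bases before the start of a RefSeq transcript, 5′ to 3′ on the gene's strand. That start is the edge of the gene position above for all but Tfcp2l1, where it lies 22 bases inside it. The stretches are chr6:122707347-122707466, chr4:55532498-55532617, chr1:118627803-118627922 and chr17:35505890-35506009 in the same build. Capitals mark 5 short motifs, chosen after these sequences were seen: a POU octamer core (TTTGCAT), a Sox-type motif (CATTGT), a GC box (GGGCGG), a Klf-type motif (GGGCGTG) and a TATA box (TATAAA), on either strand and without overlap here.
Nanog: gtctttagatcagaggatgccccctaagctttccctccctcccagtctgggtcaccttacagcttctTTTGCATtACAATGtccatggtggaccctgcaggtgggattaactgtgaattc
Klf4: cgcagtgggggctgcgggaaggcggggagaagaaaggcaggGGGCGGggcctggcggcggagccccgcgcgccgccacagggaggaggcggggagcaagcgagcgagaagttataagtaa
Tfcp2l1: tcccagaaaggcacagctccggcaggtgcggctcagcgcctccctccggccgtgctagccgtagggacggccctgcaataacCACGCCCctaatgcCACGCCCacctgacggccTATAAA
Pou5f1: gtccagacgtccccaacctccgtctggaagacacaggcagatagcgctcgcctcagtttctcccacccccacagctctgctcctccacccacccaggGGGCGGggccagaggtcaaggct
The Nanog stretch held the octamer core, 75 bases before the start, next to a Sox-type motif read on the opposite strand. The octamer core was present in 1.95% and the Sox-type motif in 5.14% of all 32851 RefSeq promoter stretches of this length. Klf4 and Pou5f1 each held 1 GC box, found in 24.2% of all stretches. Tfcp2l1 held 2 Klf-type motifs on the opposite strand and a TATA box 28 bases before the transcript start used (6 before the edge of the gene position), in 4.57% and 6.42% of all stretches. The stretches of Klf4, Tfcp2l1 and Pou5f1 were GC-rich (71.7%, 65.8% and 65.8%), against 50.0% for Nanog and a median of 53.3% over all promoters. No binding was measured, and a match of letters is a description only.

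Depth differed widely between the groups. Over the 3160 genes, the Rpl10a-IP libraries held between 16076207 and 23483388 reads, the ES input libraries 5380139 and 3898414, and the ELA input libraries 159587 (replicate 1) and 410192 (replicate 2). The study's methods left out ELA input replicate 1 for low complexity and duplicate reads, so the values of the 4 factors that rest on it are given with and without it. The deposited table was filtered on the spread of ratios that include this library, so genes whose 2 ELA ratios differed widely are not among those compared. Other markers of ES cells (Sox2, Zfp42, Esrrb) and of epiblast (Fgf5, Otx2, Pou3f1) were not analysed here. None of the 9 listed trophectoderm and 7 listed mesendoderm markers was in the filtered table, so it cannot show them. For Nanog and Pou5f1, RefSeq lists 2 and 5 named pseudogenes, none of them in the table. Whether reads were shared with these copies was not tested, so both counts are uncertain in that respect. Strand is not stated for the counting.

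All 4 factors fell in total RNA from ES to ELA, by 2.26-fold for Pou5f1, 3.22-fold for Klf4, 7.47-fold for Nanog and 12.5-fold for Tfcp2l1. Over the whole table, 35.8% of genes were called lower and 34.5% higher in total RNA, and the median gene moved by −0.02 on the log2 scale. In a bulk lysate, fewer cells that express a gene and less of its RNA per cell cannot be told apart.

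Tfcp2l1, a Grainyhead-family factor of the naive state, had normalised counts of 5082 and 5337 in ES input and of 462 and 371 in ELA input. Both ELA values lay far below both ES values. The log2 change was −3.65 (limma on log2(normalised count + 1), SE 0.12, adjusted p 4.83e-24), and only 1 of the 3160 genes had a lower value. Nanog had 2077 and 2025 normalised counts in ES input and 272 and 276 in ELA input. Its replicates lay close together, which the filter of the table favours. Its log2 change was −2.90 (limma, SE 0.12, adjusted p 2.02e-21), with 8 genes lower. Klf4, a zinc finger factor, stood at 1332 and 1403 in ES input and at 435 and 413 in ELA input. Its log2 change was −1.69 (limma, SE 0.12, adjusted p 1.01e-14), with 58 genes lower. Pou5f1 stood at 6361 and 5140 in ES input, the widest spread of any member in that group, and at 2746 and 2332 in ELA input. Its log2 change of −1.18 (limma, SE 0.11, adjusted p 1.86e-11) was the smallest of the 4, with 172 genes lower.

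The ELA input values rest on few reads. Nanog had 10 and 26 reads there, Klf4 16 and 39, Tfcp2l1 17 and 35, and Pou5f1 101 and 220. Nanog thus took 62.7 RPM (reads scaled to the total of the table) in replicate 1 (exact binomial 95% interval 30.0 to 115) and 63.4 in replicate 2 (41.4 to 92.9), against 454 and 451 in ES input. Counting error of the ELA input reads alone gave an SE of 0.27 on the log2 scale for Nanog, 0.21 for Klf4 and for Tfcp2l1, and 0.09 for Pou5f1. For the naive factors this exceeds the limma SE, which borrows its variance from other genes. With the reads of a group pooled and only the exact Poisson interval of the ELA input reads carried through, the log2 change was −2.90 for Nanog (−3.42 to −2.43), −1.70 for Klf4 (−2.11 to −1.32), −3.71 for Tfcp2l1 (−4.13 to −3.32) and −1.25 for Pou5f1 (−1.42 to −1.10). All 4 intervals lay below 0. Without ELA input replicate 1, the fitted change was −2.88 for Nanog, −1.71 for Klf4, −3.80 for Tfcp2l1 and −1.28 for Pou5f1.

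**Figure D1:**
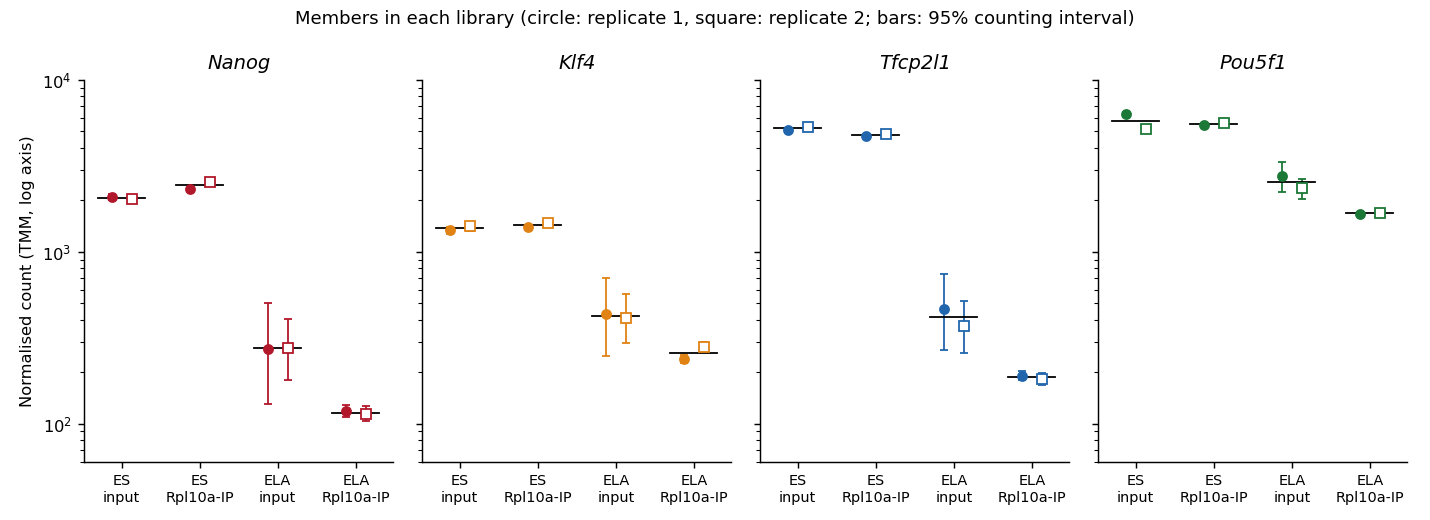
Normalised count (reads scaled by TMM factors, log axis) of the 4 factors in each of the 8 libraries, with circles for replicate 1, squares for replicate 2, a black line for the mean of each group and bars for the exact 95% counting interval of a library. The ELA libraries lie below the ES libraries in both fractions for all 4 genes, and the intervals are widest in ELA input, where Nanog had 10 and 26 reads.

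In ribosome-bound RNA, all 4 factors fell, by 3.29-fold for Pou5f1, 5.47-fold for Klf4, 20.6-fold for Nanog and 25.4-fold for Tfcp2l1. This comparison does not use the ELA input, and its libraries held at least 388 reads of each member. Over the table, 41.9% of genes were called lower and 41.6% higher. Tfcp2l1 went from 4734 and 4826 normalised counts in ES Rpl10a-IP to 190 and 182 in ELA Rpl10a-IP, which is −4.67 on the log2 scale (limma, SE 0.09, adjusted p 1.93e-96). Nanog went from 2307 and 2551 to 118 and 114, or −4.37 on the log2 scale (limma, SE 0.10, adjusted p 4.47e-89). These 2 genes had 2 and 5 of the 3160 genes below them. Klf4 went from 1385 and 1471 to 237 and 281, or −2.45 (limma, SE 0.10, adjusted p 3.21e-55). Pou5f1 went from 5481 and 5610 to 1659 and 1677, or −1.72 (limma, SE 0.09, adjusted p 1.59e-42). With a replicate block and a correction for transcript length and GC content, Pou5f1 had −0.88 in ribosome-bound and −0.76 in total RNA, both past the threshold. In no member did the ELA and ES libraries overlap, but the share of all genes without overlap was not counted. The prior of this fit carried 155 degrees of freedom against 3 of the residuals, so the very small p-values rest on variance shared between genes.

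**Figure D2:**
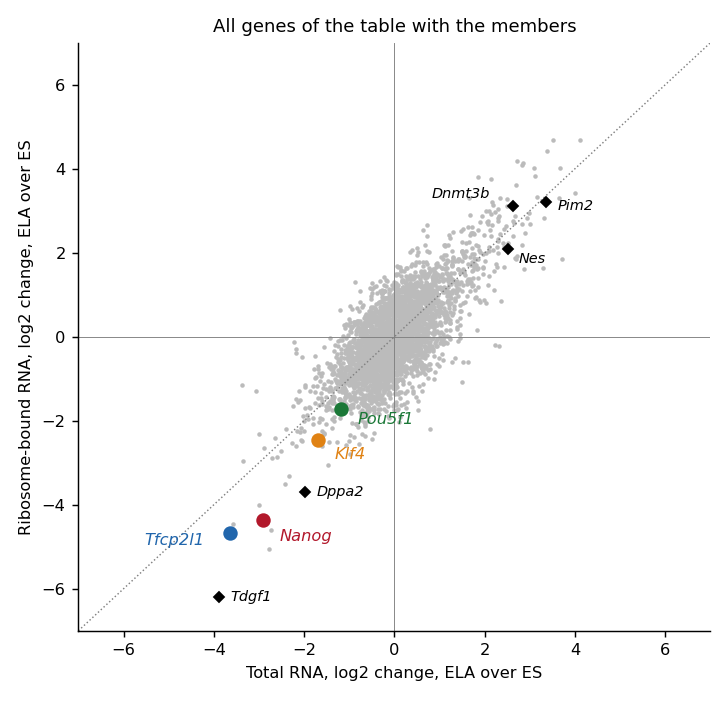
Log2 change from ES to ELA in total RNA (x axis) and in ribosome-bound RNA (y axis) for the 3160 genes (grey), with the 4 factors in colour, 5 listed genes as black diamonds and equality as a dotted line. The 4 factors lie at the lower left and below the line, with Tfcp2l1 at −3.65 and −4.67 and Pou5f1 at −1.18 and −1.72.

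In ES cells, the scaled Rpl10a-IP and input levels of the 4 factors lay close together. Scaling sets the median gene near equal levels in both (log2 −0.01), so these levels only place a factor against that gene. Ribosome enrichment, taken as the normalised count in Rpl10a-IP divided by that in the input of the same replicate number, was 1.11 and 1.26 for Nanog, 1.04 and 1.05 for Klf4, 0.931 and 0.904 for Tfcp2l1, and 0.862 and 1.09 for Pou5f1. Nanog alone passed the test, with a log2 enrichment of 0.25 (limma, SE 0.10, adjusted p 0.0289), where 20.5% of genes were called higher. That call was lost in 7 of its 16 alternatives, among them all 4 that left out an ES library (adjusted p from 0.0708 to 0.342). The log2 values of the others were 0.07 for Klf4 (95% interval −0.12 to 0.27, adjusted p 0.587), −0.11 for Tfcp2l1 (−0.29 to 0.07, adjusted p 0.342) and −0.03 for Pou5f1 (−0.21 to 0.14, adjusted p 0.797), by limma. The value of Pou5f1 depended on the ES input library left out, at 0.12 without replicate 1 and −0.18 without replicate 2 (limma, adjusted p 0.412 and 0.154). With a replicate block and a correction for transcript length and GC content, these 3 were called instead, at 0.21 for Klf4 (limma, adjusted p 0.0301), −0.22 for Tfcp2l1 (adjusted p 0.042) and, with the sign turned, 0.23 for Pou5f1 (adjusted p 0.00561), while Nanog missed the threshold (0.20, adjusted p 0.0546).

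In ELA, all 4 factors were depleted from the Rpl10a-IP relative to input and to the median gene, which scaling sets near 0 (log2 −0.01). Of all genes, 37.2% were called lower. The study's methods state that such scaling cannot account for a global change, so absolute loading on ribosomes was not measured. The enrichment was 0.434 and 0.413 for Nanog (0.424 ± 0.0143, SD, n = 2), 0.411 and 0.492 for Tfcp2l1 (0.451 ± 0.0569, SD, n = 2), 0.546 and 0.679 for Klf4 (0.612 ± 0.0943, SD, n = 2) and 0.604 and 0.719 for Pou5f1 (0.662 ± 0.0814, SD, n = 2). Each of these 8 ratios lay below every ES ratio of the same gene. The filter of the table on the spread of ratios favours such separation, and its share over all genes was not counted. The log2 enrichment was −1.23 for Nanog, −1.15 for Tfcp2l1, −0.71 for Klf4 and −0.60 for Pou5f1, with adjusted p between 1.62e-11 and 1.08e-05 (limma). In this fit over all 8 libraries, 7.56% of genes lay below Nanog and 23.4% below Pou5f1. Without ELA input replicate 1 it was −1.23 for Nanog, −0.98 for Tfcp2l1, −0.66 for Klf4 and −0.47 for Pou5f1, all still past the threshold. With the replicate block plus a correction for length and GC, Pou5f1 was no longer depleted (0.08, adjusted p 0.412, limma).

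The change of enrichment between the stages was tested as the interaction of stage and fraction, again relative to the median gene. All 4 factors passed it in the direction of lower enrichment in ELA, as did 27.7% of all genes, while 28.4% passed as higher. With an absolute log2 value of at least 1 these shares were 9.05% and 6.33%, and Nanog and Tfcp2l1 were among the former. The log2 change of enrichment was −1.47 for Nanog (limma, SE 0.16, adjusted p 4.98e-09), −1.03 for Tfcp2l1 (SE 0.16, adjusted p 2.56e-06), −0.78 for Klf4 (SE 0.17, adjusted p 0.000197) and −0.56 for Pou5f1 (SE 0.16, adjusted p 0.00291). The call of Pou5f1 held in 14 of 16 alternatives. It was lost with the same block plus correction (−0.14, adjusted p 0.39, limma) and without ES input replicate 2 (−0.40, adjusted p 0.0605). The pooled reads with the Poisson interval of the ELA input gave −1.48 for Nanog (−1.95 to −0.97), −0.97 for Tfcp2l1 (−1.36 to −0.55), −0.79 for Klf4 (−1.17 to −0.38) and −0.48 for Pou5f1 (−0.64 to −0.32). Without ELA input replicate 1 the fitted change was −1.48 for Nanog, −0.87 for Tfcp2l1, −0.74 for Klf4 and −0.44 for Pou5f1. The change in total RNA and the enrichment in ELA share the ELA input libraries, which enter them with opposite signs.

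**Figure D3:**
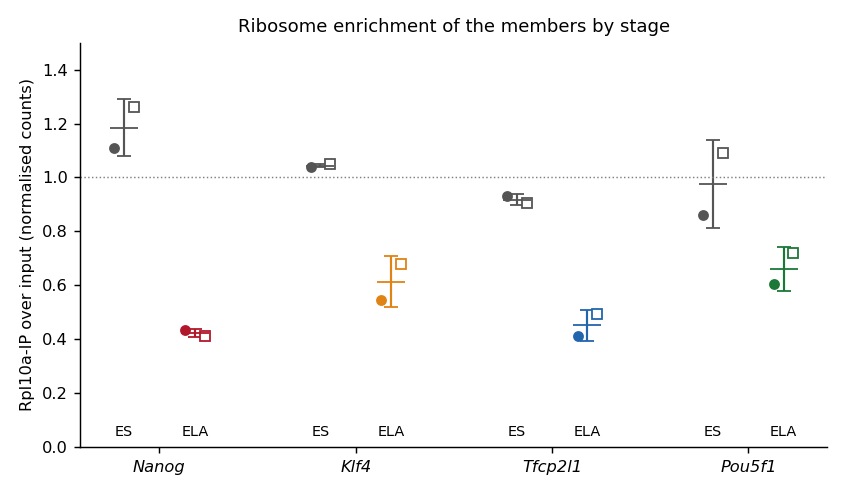
Ribosome enrichment (Rpl10a-IP over input, normalised counts) of the 4 factors in ES (grey) and ELA (colour), with circles for replicate 1, squares for replicate 2, and the mean ± SD of both as a bar. All ELA ratios lie between 0.411 and 0.719, and all ES ratios between 0.862 and 1.26.

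Transcript length moved with these values across the table. Over 3112 genes with a length, the correlation of the change of enrichment with log2 transcript length was 0.48, and that of the change in ribosome-bound RNA was 0.58. These are descriptions across genes, which share the libraries. The members differ in length: the longest annotated transcript had 1347 bases for Pou5f1 (6.36% of genes shorter, 57.5% GC), 2211 for Nanog, 3040 for Klf4 and 9269 for Tfcp2l1 (95.5% of genes shorter), against a median of 3693. With the replicate number as a block and each library corrected for transcript length and GC, the change of enrichment was −0.14 for Pou5f1 (limma, adjusted p 0.39), no longer a call. The ELA enrichment of Tfcp2l1 moved away from 0, from −1.15 to −1.83, and those of Nanog and Klf4 were −0.99 and −0.69. Under the same correction, the change of enrichment was −1.18 for Nanog, −0.90 for Klf4 and −1.60 for Tfcp2l1. That of Tfcp2l1 had moved by over 1.5 times, away from 0.

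The ratio of 2 members within 1 library does not depend on any scaling of libraries. It does depend on the trend with transcript length and GC, for which these ratios were not corrected. With the block and that correction, the ribosome-bound log2 changes were −5.46 for Tfcp2l1, −3.80 for Nanog, −2.41 for Klf4 and −0.88 for Pou5f1. Nanog reads over Pou5f1 reads fell on the log2 scale from −1.48 ± 0.19 (SD, n = 2) in ES input to −3.21 ± 0.18 (SD, n = 2) in ELA input, and from −1.19 ± 0.08 to −3.85 ± 0.05 in Rpl10a-IP. Tfcp2l1 over Pou5f1 went from −0.13 ± 0.27 to −2.61 ± 0.06 in input and from −0.21 ± 0.00 to −3.16 ± 0.05 in Rpl10a-IP. Relative to Pou5f1, Nanog was thus 3.32-fold lower in ELA input and 6.29-fold lower in ELA Rpl10a-IP, and Tfcp2l1 5.57-fold and 7.72-fold lower. Klf4 over Pou5f1 was 1.43-fold lower in input and 1.66-fold lower in Rpl10a-IP. Among the naive factors, Klf4 over Tfcp2l1 was 3.90-fold higher in ELA input and 4.65-fold higher in ELA Rpl10a-IP. The groups did not overlap for any of the 6 pairs in either fraction, but the share over other pairs of genes was not counted. An exact two-sided permutation test of 2 against 2 libraries cannot go below p = 0.333, the value found for all of them, so these ratios carry no call. Without ELA input replicate 1, the input differences were −1.60 for Nanog, −2.52 for Tfcp2l1 and −0.43 for Klf4 over Pou5f1, against −1.73, −2.48 and −0.51 with it. For Klf4 over Tfcp2l1 it was 2.09 without and 1.96 with that library.

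**Figure D4:**
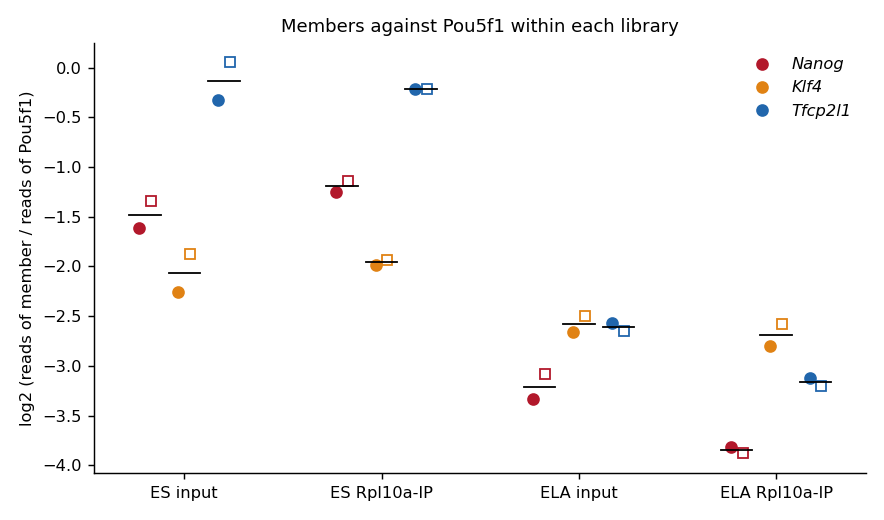
Log2 ratio of the reads of Nanog, Klf4 and Tfcp2l1 to the reads of Pou5f1 within each library (circles replicate 1, squares replicate 2, lines the mean of 2 libraries). Every ELA library lies below every ES library of the same fraction for all 3 genes, from a mean of −0.13 to −2.61 for Tfcp2l1 in input.

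Levels of different genes can be set side by side only per length. As RPM per kb of the longest transcript, Pou5f1 led every group, at 941 ± 128 (SD, n = 2) in ES input and 434 ± 50.7 (SD, n = 2) in ELA input. In ES input, Nanog (205 ± 0.821), Tfcp2l1 (124 ± 6.02) and Klf4 (99.2 ± 5.01) followed, and the ranges of neighbours in this order did not overlap. In ELA input the order was Pou5f1, Klf4 (32.1 ± 1.21), Nanog (28.5 ± 0.231) and Tfcp2l1 (10.3 ± 1.62). There, the counting intervals of Klf4 and Nanog overlapped, as did those of Nanog and Tfcp2l1. In ELA Rpl10a-IP the same order was found, at 264, 18.2, 11.2 and 4.28, with neighbours apart beyond their counting intervals. ELA input replicate 2 alone kept the order, at 398, 31.3, 28.7 and 9.21. Pou5f1 thus stood 4.60-fold above Nanog, the next member, in ES input and 13.5-fold above Klf4, the next member, in ELA input.

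The genes with the profiles most like each factor were found by the root mean square difference of centred log2 profiles over the 8 libraries. The libraries fall into 2 stages, which all these profiles share. Nearest to Nanog were Lrrc2 (difference 0.28, Pearson's r 0.99), Pdgfc (0.28, r 0.99), a growth factor of the PDGF family, and AU018091 (0.31, r 0.99). Tfcp2l1 came at rank 4 for Nanog, also at 0.31. Nearest to Tfcp2l1 were AU018091 (0.21, r 1.00), Nanog (0.31, r 1.00) and Hspb1 (0.38, r 0.98), a small heat shock protein. Klf4 had Skap2 (0.14), Uqcrb (0.15), a subunit of respiratory complex III, and Trap1a (0.16) as its neighbours, all with r 0.99. Pou5f1 had Atp6v1e1 (0.08), a subunit of the vacuolar proton pump, Glul (0.11), glutamine synthetase, and Isy1 (0.11), with r 0.99 for each. Among the other members, Klf4 was at rank 175 for Pou5f1 (0.34, r 0.99), and Pou5f1 at rank 34 for Klf4. Nanog and Tfcp2l1 lay far down the list of Pou5f1, at 2472 and 2876, though also with r 0.99 for each. The difference keeps the size of the changes, which r does not. Over the 7 libraries without ELA input replicate 1, the nearest 3 of Nanog and of Tfcp2l1 were the same genes. Nudt4 and Dusp27 then came before Uqcrb for Klf4, with Skap2 at rank 4 and Trap1a at 7. Sfmbt2 came first for Pou5f1, with Glul at rank 5. The profiles carry no length and GC correction. With it, ribosome-bound RNA changed by −2.41 for Klf4, against −1.44 (Skap2), −0.79 (Uqcrb) and −1.16 (Trap1a). Pou5f1 had −0.88, against −0.51 (Atp6v1e1), −1.40 (Glul) and −0.94 (Isy1). Nanog had −3.80, against −3.91 (Lrrc2), −4.63 (Pdgfc) and −4.32 (AU018091). Tfcp2l1 had −5.46, and Hspb1 −3.83.

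Other genes of the pluripotency network were taken from lists of which only a part is in the table. Their counts are to be read against the whole table, where 35.8% of genes fell and 34.5% rose in total RNA, and 41.9% fell and 41.6% rose in ribosome-bound RNA. Without ELA input replicate 1, no listed gene lost its call in total RNA, and 1 core factor (Lin28a, 0.34) and 1 exit factor (Jarid2, −0.30) gained one. Of 11 naive transcription factors beside the members, 1 was in the table: Klf2, a relative of Klf4. It fell by 1.64 on the log2 scale in total RNA and by 1.93 in ribosome-bound RNA (limma, adjusted p 1.43e-14 and 4.48e-43). Its enrichment in ELA was −0.25 (adjusted p 0.0501). Of 15 other naive markers, 2 were in the table, and both fell. The Nodal co-receptor gene Tdgf1 changed by −3.89 in total and −6.19 in ribosome-bound RNA. The growth factor gene Fgf4 changed by −2.89 and −2.64. In ELA input, Tdgf1 had 22 and 54 reads and Fgf4 only 5 and 17. Against medians of −0.02 and −0.01 over all genes, this pair had medians of −3.39 and −4.42.

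LIF acts on ES cells through its receptor and STAT3. Of 12 genes of this pathway, 5 were in the table. In total RNA 4 fell and in ribosome-bound RNA 4 fell and 1 rose, with medians of −1.51 and −1.64. Lifr, a receptor subunit, changed by −1.51 and −1.64. Stat3, the transcription factor upstream of Klf4 and Tfcp2l1, went from 816 and 820 normalised counts in ES input to 218 and 223 in ELA input, and changed by −1.89 and −1.66. Socs3, its target and feedback inhibitor, changed by −2.59 and −2.86. In ELA input, Stat3 had 8 and 21 reads and Socs3 3 and 8, both fewer than those of Nanog.

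Core and general pluripotency factors moved both ways. Of 19, 8 were in the table. In total RNA 2 of them rose and 3 fell, and in ribosome-bound RNA 2 rose and 4 fell. The medians were −0.22 and −0.14. Among the rises in ribosome-bound RNA was Hcfc1 (0.93), which was not called with the length and GC correction (0.10). Its total RNA had −0.16, not called, and a called −0.47 with that correction. Dppa2, which marks bivalent chromatin in pluripotent cells, changed by −1.98 and −3.70 on the log2 scale, and passed in both. Tet1, a 5-methylcytosine oxidase, changed by −0.94 and −0.56 (−1.33 and −1.72 with the length and GC correction), and Trim28, a corepressor, by −0.93 and −0.77. Sall4, an Oct4 partner, had 0.25 and −0.19, both past the threshold by limma (adjusted p 0.0336 and 0.045). Its call in total RNA was lost in 7 of 16 alternatives, among them the deposited size factors (0.15) and the length and GC correction (0.04), and without either ES input, either ES Rpl10a-IP or ELA input replicate 2 (0.19 to 0.29). Its call in ribosome-bound RNA was lost in 5, with all 8 libraries (−0.20) and without any 1 of the Rpl10a-IP libraries (−0.20 to −0.17), and the correction took it to −0.78. Of 16 exit factors of the naive state, 7 were in the table, of which 1 rose and 2 fell in total RNA, and 3 rose and 3 fell in ribosome-bound RNA. Among them, Gsk3b, a kinase that restrains Wnt signalling, rose by 1.32 and 0.73 (0.06 in ribosome-bound RNA, no longer called, with the length and GC correction), and Rbpj, the Notch effector, had −1.38 and −1.58, past the threshold in both.

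Of 21 formative and primed markers, 6 were in the table, and 5 of them rose and 1 fell in each fraction, with medians of 1.46 and 1.70. The de novo DNA methyltransferase Dnmt3b rose by 2.62 in total and 3.11 in ribosome-bound RNA, from 3188 and 3063 normalised counts in ES input to 20200 and 18169 in ELA input. Dnmt3a rose by 0.70 and 0.92 (0.44 and, not called, 0.01 with the length and GC correction), the kinase gene Pim2 by 3.36 and 3.21, Lin28b by 1.49 and 2.26 and Zic5 by 1.43 and 1.13. Etv5, a factor downstream of FGF and ERK, had −0.83 and −0.74.

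Markers of other cell types were few in the table. Of 9 neural markers, 3 were measured, and all rose in total RNA: Nes by 2.51, Sox11 by 2.18 and Ncam1 by 1.23. In ribosome-bound RNA, Nes and Sox11 rose by 2.09 and 2.07, and Ncam1 had −0.04 (limma, adjusted p 0.71). With the length and GC correction, Nes had 1.33 and Ncam1 −0.65 in ribosome-bound RNA, both past the threshold. Their summed normalised counts were 1175 and 1285 in ES input and 5383 and 5321 in ELA input. Of 13 primitive endoderm markers, the laminin genes Lama1 and Lamb1 were measured, with −0.80 and −0.61 in total RNA and 0.22 and 0.32 in ribosome-bound RNA. The length and GC correction turned both ribosome-bound values, to −0.73 and −0.36, past the threshold, and the call of Lama1 was lost in 6 other alternatives and that of Lamb1 in 2. Their summed normalised counts were 2054 and 1882 in ES input and 1223 and 1261 in ELA input. The part of other cell types in the falls of the 4 factors was not tested.

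**Figure D5:**
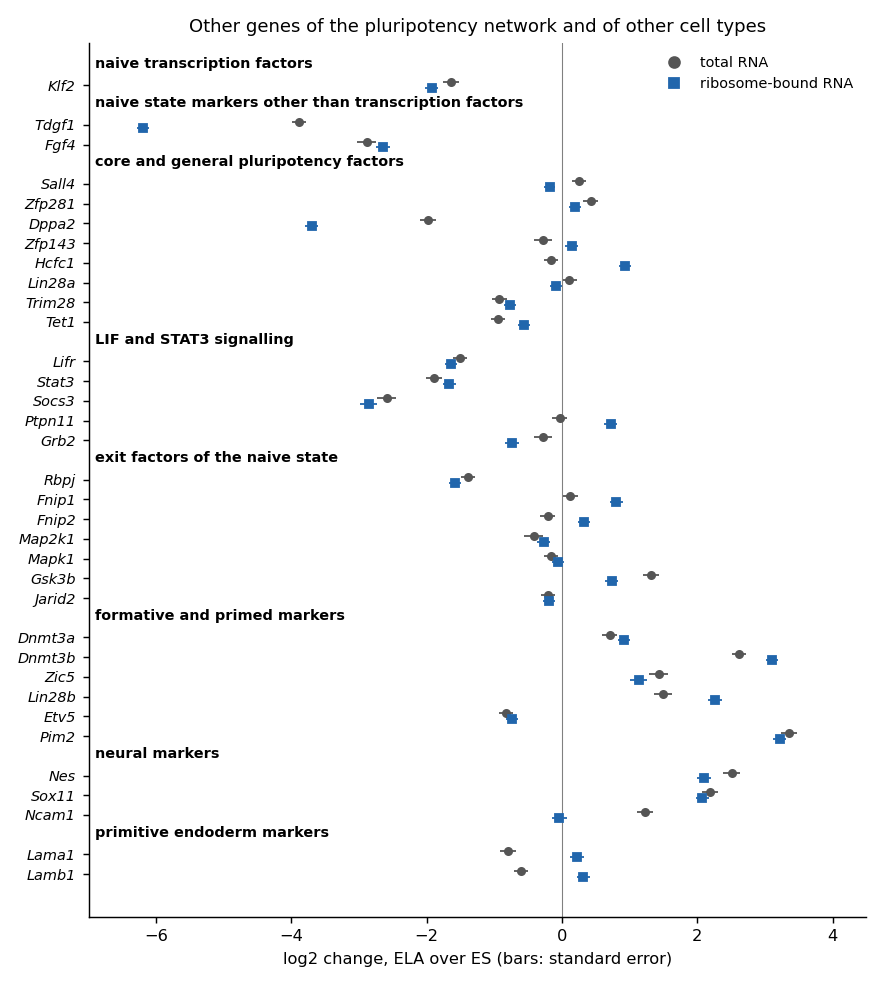
Log2 change from ES to ELA in total RNA (grey circles) and ribosome-bound RNA (blue squares) for the listed genes in the table, with bars for the SE of the limma fit. In total RNA this SE can lie below the counting error of few ELA input reads. Klf2, Tdgf1, Fgf4, Dppa2, Lifr, Stat3, Socs3 and Rbpj lie below −1 in both fractions, and Dnmt3b, Pim2, Lin28b, Zic5, Nes and Sox11 above 1.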

How the data were processed

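Read mapping by the authors used TopHat2 and the mouse transcriptome of mm10, without repeats. The authors then counted reads per gene with htseq-count and divided the counts by DESeq2 size factors. The deposited per-library values, taken as a signal, are these normalised counts. They were whole multiples of 1 read for 100% of values within 0.001 of a read, and reads were computed back from them. The 26 other deposited columns hold means, SDs, ratios and the authors' fold changes and were not used here. The deposited table holds genes whose larger mean input count was at least 50.02 and whose SD over mean of the ratio was at most 0.1998, so replicates lie close by selection and p-values are too small. Anti-GFP control immunoprecipitations were not analysed here.

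Reads were scaled by TMM factors over the libraries of each fit, and limma (version 3.58.1, R 4.3.3) with lmFit and eBayes (trended prior) was fitted to log2(normalised count + 1), with 1 coefficient per group and no block. Benjamini-Hochberg adjustment ran over all 3160 genes at a threshold of 0.05. Fits of total RNA, of ELA enrichment and of the change of enrichment used 8 libraries. Fits of ribosome-bound RNA and of ES enrichment used 7, without ELA input replicate 1. Log2 changes understate those of low genes. Counting intervals are exact at 95% and cover counting error only. The method was tested on simulated data. Transcript lengths come from GENCODE vM1 (3112 genes matched, 133 through an older symbol), positions and promoters from RefSeq (GRCm38.p6, all 4 members matched). Replicate numbers are shared by the sample titles of all groups. The input was taken from the cleared lysate before immunoprecipitation, but no source used here says that the libraries of 1 number come from 1 lysate, or that numbers pair the stages. Genes named beside the members are the 3 nearest profiles of each, list genes called with a log2 change of at least 1, and others chosen after their values were seen. The members and lists were chosen with earlier results of these data known.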

Additional observations from a re-analysis of the deposited data

Results flagged for a closer look

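The Rpl10a-IP over input contrast differed between ES and ELA, by limma's interaction of stage and fraction, for all 4 factors, with log2 values of −1.47 for Nanog, −1.03 for Tfcp2l1, −0.78 for Klf4 and −0.56 for Pou5f1. Over the alternatives, the value of Nanog ranged from −1.57 to −1.18, that of Tfcp2l1 from −1.60 to −0.87, that of Klf4 from −0.90 to −0.66 and that of Pou5f1 from −0.71 to −0.14. Pou5f1 lost its call in 2 of them, with the replicate block plus a correction for length and GC (−0.14, adjusted p 0.39, limma) and without ES input replicate 2 (−0.40, adjusted p 0.0605).

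The same test also passed, with an absolute log2 value of at least 1, for 5 of the 34 other listed genes, 3 lower and 2 higher. Over the whole table, 27.7% of genes passed as lower and 28.4% as higher, and 9.05% and 6.33% did so with a value of that size. Tdgf1 had −2.30, with an enrichment that went from 1.07 ± 0.0129 in ES to 0.216 ± 0.013 in ELA (SD, n = 2). Dppa2 had −1.73, from 0.992 ± 0.00918 to 0.297 ± 0.0236 (SD, n = 2). Ncam1 had −1.28, from 0.983 ± 0.0524 to 0.403 ± 0.011 (SD, n = 2). Hcfc1, a chromatin cofactor, had 1.08, from 0.993 ± 0.0601 to 2.10 ± 0.226 (SD, n = 2), and 0.56 with the replicate block and a correction for length and GC. Lama1 had 1.01, from 0.987 ± 0.103 to 1.99 ± 0.0756 (SD, n = 2), and 0.40 (adjusted p 0.045, limma) with that correction. Over the alternatives, Tdgf1 ranged from −2.40 to −1.92, Dppa2 from −1.82 to −1.28 and Ncam1 from −1.70 to −1.24.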

How the results depend on the processing

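The falls of the 4 factors in total and in ribosome-bound RNA stayed past the threshold in each of their 16 refits by limma, as did the ELA enrichment and the change of enrichment of Nanog, Klf4 and Tfcp2l1. Nanog in ES lost its call with total reads as scaling (0.22), with all 8 libraries (0.24) and with the replicate block plus a correction for length and GC (0.20). Its value ranged from 0.19 to 0.32 when a library was left out. That same correction gave called ES enrichments of 0.21 for Klf4 and −0.22 for Tfcp2l1. It turned Pou5f1 to 0.23 in ES (adjusted p 0.00561) and to 0.085 in ELA, and took its change of enrichment to −0.14. It also turned Lama1 to −0.73 and Lamb1 to −0.36 in ribosome-bound RNA. The cause was not tested. The change of enrichment of Pou5f1 ranged from −0.71 to −0.40 when a library was left out. In ES, 647 genes were called higher, 362 with all 8 libraries and between 379 and 681 when a library was left out, and 592 were called lower, between 355 and 652 when a library was left out. The lowest of both ranges came without ES Rpl10a-IP replicate 1. The deposited size factors moved the median gene by −0.12 in ribosome-bound RNA, and total reads moved it by −0.11 in ELA enrichment.

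The replicate block alone gave the same log2 values and changed no call of the 4 factors. It moved the calls of lower total RNA from 1130 to 1181. Within groups, deviations of libraries that share a number correlated across groups at 0.17 (ES input and Rpl10a-IP), 0.50 (ELA input and Rpl10a-IP), 0.15 (both inputs), −0.02 (both Rpl10a-IP), 0.17 (ES input and ELA Rpl10a-IP) and 0.04 (ES Rpl10a-IP and ELA input). Of these 6 values 4 are over 0.1. The table was filtered on ratios of Rpl10a-IP to input within a number, which favours such agreement. These values therefore cannot settle what the numbers mark. The planned quasi-likelihood and Wald count models were not run, since tests were held to the deposited unit. The intervals with pooled reads were added after seeing the data. The ELA input reads limit all values that use them.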
